A study of Mus musculus with 4 samples.

Results

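The genes described here encode the initiation and elongation factors of protein synthesis. They were taken by symbol from a RefSeq annotation of the mouse genome (GRCm38.p6, the assembly that build mm10 names), as protein-coding genes on chromosomes 1 to 19 whose symbols start with Eif1, Eif2, Eif3, Eif4, Eif5, Eif6 or Eef. The rule gives 68 of the 20665 protein-coding genes on these chromosomes, of which 3 (Eif2ak1, Eif2ak3 and Eif2ak4) encode kinases of initiation factor eIF2 and are kept as a subgroup; Eif2ak2 is left out by the rule. The assay was ATAC-seq: a transposase cuts and tags DNA wherever nucleosomes and other proteins leave it exposed, so that tagged stretches mark accessible chromatin. The libraries came from naive CD4 T cells of the spleen and pLN, the tissue name that the labels give, with 2 libraries labelled Ddx55 KO and 2 labelled WT. Ddx55 is an RNA helicase needed to build the large ribosomal subunit, and the series was set up to compare open chromatin between these genotypes. The labels give no age, sex, strain, promoter or allele for the knockout, and do not say whether the libraries of a genotype came from different animals. The deposited data used here are 1 list of 64525 regions for all 4 libraries, which gives positions without a read count, score, library or genotype. Every value below therefore describes both genotypes together, depth per library is unknown, and no difference between Ddx55 KO and WT was analysed here.

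Translation starts when the small ribosomal subunit, carrying eIF1, eIF1A, eIF3 and the complex of eIF2 with initiator tRNA, is loaded on an mRNA by the cap-binding eIF4 factors and scans to a start codon. eIF5B then joins the large subunit, and the elongation factors eEF1A and eEF2 bring aminoacyl-tRNAs and move the ribosome along. Naive T cells make little protein, and protein synthesis climbs steeply when they are activated; phosphorylation of eIF2 and the binding of eIF4E by 4E-BP proteins are the best known brakes.

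The labelled cell type was checked against marker genes. All 7 of the markers of naive CD4 T cells given here (Cd3e, Cd4, Lck, Tcf7, Lef1, Ccr7 and Il7r) had an accessible region within 1 kb of a gene end. Of the B cell markers 0 of 3 had one, and of the natural killer cell markers 0 of 2. Away from their ends the B cell genes were not all closed, since Pax5 held 5 regions inside the gene and Cd79a had 4 within 10 kb. Of 2 markers each, 1 had a region at an end for CD8 T cells (Cd8b1) and macrophages (Csf1r). The part of other cells in the results was not tested.

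Reference promoters of 8 members are shown because they carry the contrasts described below, namely paralogs with and without a region at the start, the widest region over an annotated start, and the clearest motif matches. The sequences are RefSeq's (GRCm38.p6), 5′ to 3′ on the gene's strand, and run from 250 bases before the annotated start through the first 30 bases from it. Capitals mark matches to the motifs searched, on either strand, and an unbroken run of at least 5 C or T letters from the start. The first 4 are an elongation factor gene and its tissue-restricted paralog, then a helicase gene and a gene of like symbol; a region covered the starts of Eef1a1 (chr9:78481695-78481974, minus strand) and Eif4a3 (chr11:119300014-119300293, minus strand), and no region lay in, or within 10 kb of, Eef1a2 (chr2:181156986-181157265, minus strand) or Eif4a3l1 (chr6:136327289-136327568, plus strand).
Eef1a1: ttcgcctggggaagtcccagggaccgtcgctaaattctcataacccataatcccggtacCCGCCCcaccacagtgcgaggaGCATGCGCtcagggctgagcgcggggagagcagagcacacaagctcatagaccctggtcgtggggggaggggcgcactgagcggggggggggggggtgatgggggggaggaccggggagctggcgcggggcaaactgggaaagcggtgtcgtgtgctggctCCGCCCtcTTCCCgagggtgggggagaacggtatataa
Eef1a2: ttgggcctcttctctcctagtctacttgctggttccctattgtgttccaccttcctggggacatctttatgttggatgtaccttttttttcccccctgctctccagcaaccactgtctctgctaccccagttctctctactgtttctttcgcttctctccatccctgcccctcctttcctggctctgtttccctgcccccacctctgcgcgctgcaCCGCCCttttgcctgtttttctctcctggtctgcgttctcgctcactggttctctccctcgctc
Eif4a3: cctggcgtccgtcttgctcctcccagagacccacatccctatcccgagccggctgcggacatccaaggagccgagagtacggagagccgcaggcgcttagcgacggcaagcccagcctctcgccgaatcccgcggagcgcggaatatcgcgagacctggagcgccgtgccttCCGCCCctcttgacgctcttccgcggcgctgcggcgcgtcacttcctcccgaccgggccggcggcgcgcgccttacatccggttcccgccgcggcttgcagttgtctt
Eif4a3l1: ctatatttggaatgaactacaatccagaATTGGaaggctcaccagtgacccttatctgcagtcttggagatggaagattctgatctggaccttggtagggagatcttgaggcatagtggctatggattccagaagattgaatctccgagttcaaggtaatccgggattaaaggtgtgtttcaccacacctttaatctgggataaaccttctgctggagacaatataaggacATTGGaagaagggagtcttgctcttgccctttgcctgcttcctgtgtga

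The other 4 promoters all had their start inside a region. Eif3b (chr5:140419055-140419334, plus strand) lay under the widest region over an annotated start, Eef2 (chr10:81176381-81176660, plus strand) held an E-box, a TATA box, a CRE and an NRF1 match together, Eif3f (chr7:108934165-108934444, plus strand) began with the longest run of C and T, and Eif5a2 (chr3:28781027-28781306, plus strand) held ETS, SP/KLF, NFY and E-box matches.
Eif3b: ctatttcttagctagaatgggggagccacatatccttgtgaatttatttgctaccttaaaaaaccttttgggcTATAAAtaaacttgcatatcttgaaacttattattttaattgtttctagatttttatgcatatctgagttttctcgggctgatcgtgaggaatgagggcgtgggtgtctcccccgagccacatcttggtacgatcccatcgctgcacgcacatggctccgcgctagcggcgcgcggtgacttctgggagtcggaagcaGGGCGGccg
Eef2: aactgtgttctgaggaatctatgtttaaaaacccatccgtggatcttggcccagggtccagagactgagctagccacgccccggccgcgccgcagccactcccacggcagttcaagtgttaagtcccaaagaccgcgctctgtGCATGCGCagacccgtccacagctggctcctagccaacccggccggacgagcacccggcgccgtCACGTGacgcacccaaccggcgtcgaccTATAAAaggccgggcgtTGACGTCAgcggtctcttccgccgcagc
Eif3f: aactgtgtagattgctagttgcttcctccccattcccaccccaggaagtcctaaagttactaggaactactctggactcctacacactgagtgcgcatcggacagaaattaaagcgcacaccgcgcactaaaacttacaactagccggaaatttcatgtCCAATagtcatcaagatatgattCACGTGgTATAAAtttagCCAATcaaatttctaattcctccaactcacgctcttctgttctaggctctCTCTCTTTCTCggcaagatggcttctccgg
Eif5a2: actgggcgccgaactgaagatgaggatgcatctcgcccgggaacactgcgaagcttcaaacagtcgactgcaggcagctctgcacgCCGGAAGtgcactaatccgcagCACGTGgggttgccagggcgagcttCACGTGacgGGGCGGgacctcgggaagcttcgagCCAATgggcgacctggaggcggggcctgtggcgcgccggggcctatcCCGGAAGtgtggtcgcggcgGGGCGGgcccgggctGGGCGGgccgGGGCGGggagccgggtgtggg

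Almost every translation factor gene was accessible at an end. A region lay within 1 kb of either annotated end for 62 of the 68 genes (91.2%, 95% exact binomial interval 81.8 to 96.7%), against 54.1% of all protein-coding genes on the same chromosomes, the 68 included. The interval covers counting error over genes only; no test was run on the list, since its members were chosen with results of these data known. Most of the 62 genes had a single region there, 48 with 1 and 14 with 2 or more. In the gene and 10 kb on either side, 65 of 68 genes (95.6%) had a region, against 79.6% of all genes. The number of regions in that span had a median of 2 for the translation factor genes (quartiles 2 and 3.25, highest 9) and a median of 2 for all genes (quartiles 1 and 3, highest 65). The mean number at the ends was 1.13 per translation factor gene against 0.649 over all genes, while the mean number inside genes was 0.691 against 1.22. The translation factor genes had a median length of 15.2 kb against 17.5 kb for all genes, and the longest was 215 kb against 2270 kb. The part of gene length in these means was not tested.

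**Figure D1:**
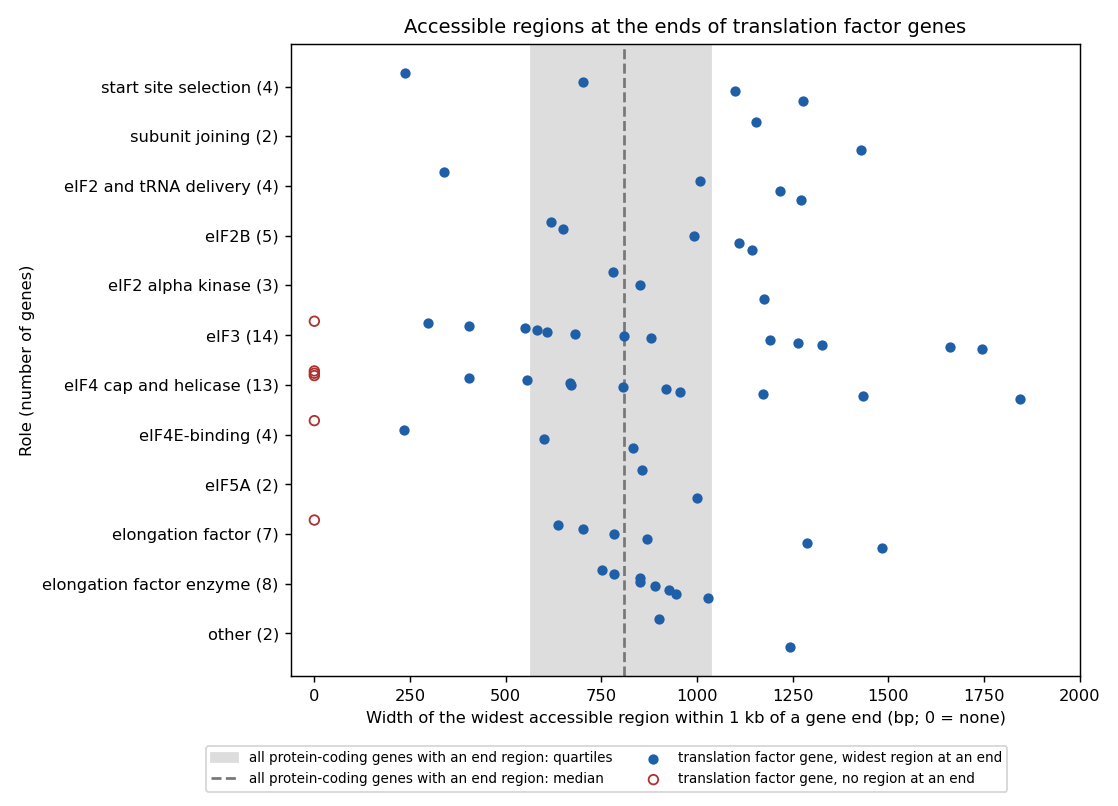
Width in bp of the widest accessible region within 1 kb of an end of each translation factor gene (points, 1 per gene, grouped by role); open points at 0 are the 6 genes without one. The shaded band and dashed line give the quartiles (566 to 1036 bp) and median (810 bp) over all protein-coding genes with such a region; the points run from 233 to 1843 bp with a median of 875 bp.

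Where the annotation gives a start, the accessible region sat on it. Promoter sequences with a strand and start matched 52 of the 68 genes. An annotated start base lay inside a region for 48 of the 52 (92.3%), against 47.3% of the 16457 genes with a start. All 49 of those with a region at an end had it in the window at the start, and only 4 had one in the window at the other end (7.69%, against 9.22% of all genes). Across the 48 most upstream starts that were covered, the region reached a median of 410 bp upstream (30 to 1328 bp) and 394 bp downstream (36 to 1152 bp). Over all genes with a covered start the medians were 398 and 431 bp.

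**Figure D2:**
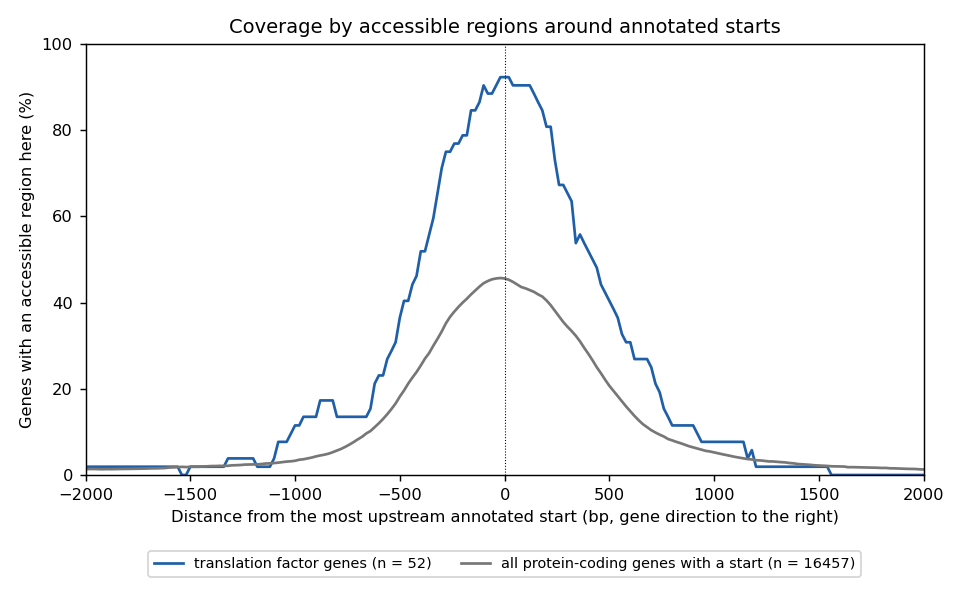
Percent of genes with an accessible region at each distance (bp) from the most upstream annotated start, for the 52 translation factor genes and for all 16457 protein-coding genes with a start. The curve for all genes is highest 20 bp before the start, at 45.7%. The curve for the translation factor genes stays at its highest value, 92.3%, from 20 bp before the start to 20 bp past it.

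The 4 translation factor genes whose annotated starts were not covered fell into 2 kinds. Eef1a2 (chr2:181141758-181157015) and Eif4a3l1 (chr6:136327539-136329983) had no region in the gene or within 10 kb. Eif1b, a paralog of the start codon fidelity factor gene Eif1, had a region of 236 bp (chr9:120492985-120493220) whose middle lay 496 bp past its start. Eif4ebp2, which encodes an inhibitor of eIF4E, had regions on both sides, one of 834 bp (chr10:61451478-61452311) with its middle 774 bp past the start and one of 334 bp with its middle 256 bp before it. The 334 bp region (chr10:61452759-61453092) covered the end of the gene model at 61452790, which lies upstream of the annotated start at 61452669.

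Promoters of translation factor genes were rich in CpG, a feature that moves with accessibility in the whole gene set. The ratio of observed to expected CpG in the 300 bases around the most upstream start had a median of 0.826 (0.202 to 1.22) for the 52 genes and 0.597 for all genes. It was at least 0.6 in 46 of the 52 (88.5%), against 49.8% of all genes. Among genes at or above 0.6, a region lay at an end of 45 of the 46 translation factor genes (97.8%) and of 80.8% of all 8198 genes. Below 0.6 the numbers were 4 of 6 translation factor genes and 29.2% of all 8259 genes. Eef1a2, at 0.417, and Eif4a3l1, at 0.202, were the pair below 0.6 without a region, and Eif4e (0.474), Eif2b5 (0.411), Eif2ak1 (0.569) and Eef1akmt2 (0.595) were below 0.6 with one. The class of Eif4e rests on its most upstream start, since the ratio was 1.03 at its second start, under the same region. The part of CpG content in the high share was not tested.

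**Figure D3:**
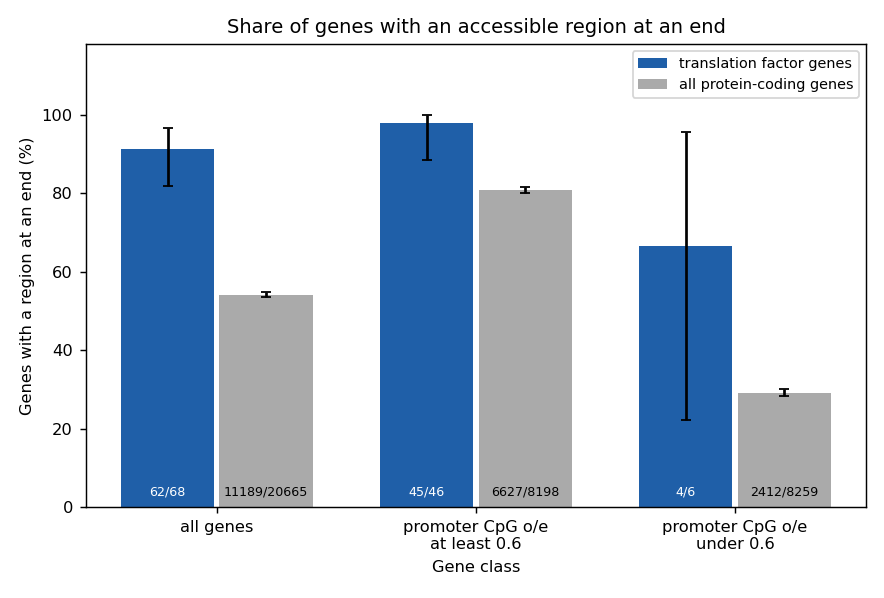
Percent of genes with a region within 1 kb of an end, for the translation factor genes and for all protein-coding genes, over all genes and within 2 classes of promoter CpG observed over expected (o/e). Bars carry 95% exact binomial intervals and the counts behind them; the shares are 91.2 and 54.1% over all genes, 97.8 and 80.8% at or above 0.6, and 66.7 and 29.2% below it.

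The factors that choose the start codon and join the ribosomal subunits all had a region at an end. Eif1, whose product guards start codon selection, lay under a region of 1099 bp (chr11:100319605-100320703) that covered its start; the gene itself is 2.15 kb long. Eif1a, an autosomal gene for the scanning factor eIF1A, had regions of 1276 and 165 bp at its ends, the wider one also at an end of Tmed7. Eif5, which encodes the protein that triggers GTP hydrolysis by eIF2, had 702 bp. The subunit-joining GTPase gene Eif5b had 1429 bp, and Eif6, whose product keeps free large subunits from joining and acts in their assembly, had 1154 bp at one end and 596 bp at the other. The 4 start codon genes and these 2 had no region inside the gene away from the ends. In Eif1, and in Eif1b at 2.72 kb, the 1 kb windows at the ends left little room for one. Such a region was present in 36.8% of the translation factor genes and 40.3% of all protein-coding genes.

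The genes of eIF2, which carries initiator tRNA, and of eIF2B, which recharges it with GTP, all had a region at an end. For eIF2 these were 1273 bp at the alpha subunit gene Eif2s1, the one whose product is phosphorylated under stress, and 1218 bp at the beta subunit gene Eif2s2. Eif2a and Eif2d encode alternative tRNA-delivery factors that are not parts of eIF2. Eif2a had a region of 1007 bp on its start and 7 regions in the gene and 10 kb, whereas Eif2d had 338 bp on its start and 5 regions. The 5 eIF2B genes had 1144 bp (Eif2b1), 991 bp (Eif2b2), 618 bp (Eif2b3), 1111 bp (Eif2b4) and 649 bp (Eif2b5, the catalytic subunit), and among them Eif2b3 alone had a region inside the gene.

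The 3 eIF2 alpha kinase genes had the same layout, with 1 region on the start, 1 inside the gene and 1 or 2 within 10 kb. Eif2ak1, the haem-regulated kinase gene, had 1176 bp on its start (chr5:143817143-143818318) and a region of 189 bp inside the gene, 57163 bp from the start. Eif2ak3, which encodes the kinase that responds to unfolded protein in the endoplasmic reticulum, had 781 bp on its start (chr6:70843894-70844674) and 602 bp inside. Eif2ak4, whose product senses amino acid shortage, had 852 bp on its start (chr2:118388211-118389062) and 234 bp inside; the second of its 2 annotated starts was not covered. These genes are 60.8 to 86.7 kb long, against a median of 15.2 kb for the 68 genes.

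Of the 14 genes of eIF3, the large complex that holds the small subunit and mRNA together, 13 had a region at an end. The widest end region had a median of 810 bp and ran from 296 bp at Eif3i to 1745 bp at Eif3b. Eif3b encodes a scaffold subunit, and its region (chr5:140418341-140420085) was the only one in the gene and 10 kb. Eif3k followed with 1661 bp (chr7:28981556-28983216), which also lay at an end of Map4k1, a kinase gene active in blood cells. Eif3j1 had 1327 bp (chr2:122027686-122029012), Eif3d 1264 bp and Eif3a 1192 bp, and Eif3e, Eif3h, Eif3m, Eif3l, Eif3f, Eif3c and Eif3g had between 405 and 881 bp. Internal regions were few, 6 in all in 4 of the 14 genes, with 3 in Eif3h and 1 each in Eif3e, Eif3j1 and Eif3k. The exception at the ends was Eif3j2 (chr18:43475418-43477836), a 2.42 kb paralog of Eif3j1, with 0 regions in the gene and 10 kb.

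The eIF4 genes, for cap binding and mRNA unwinding, ran from 0 to 9 regions in the gene and 10 kb, and 10 of 13 were accessible at an end. Eif4g2, whose product resembles the scaffold eIF4G but lacks its eIF4E-binding part, had the widest end region of all the translation factor genes, 1843 bp (chr7:111081725-111083567). Eif4b, which stimulates the eIF4A helicase, had 919 bp on its start (chr15:102073606-102074524) and 8 regions in the gene and 10 kb, of which 3 were inside. Eif4h, a relative in function, had 955 bp on its start and 4 regions.

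The pair of genes with the most regions in the gene and 10 kb, 9 each, had none at an annotated end. Eif4g3 (chr4:137991779-138207086), a 215 kb scaffold gene, had 7 regions inside; the first of them, 604 bp (chr4:137993077-137993680), covered both of its annotated starts, which lie inside the longer gene model, so its start was accessible although the 1 kb windows missed it. Eif4e3 (chr6:99621879-99692873), a 71 kb gene for an atypical cap-binding protein, had all 9 regions inside, from 195 to 592 bp wide. The regions inside both genes were all narrower than 807 bp, the median of the distinct regions at ends of translation factor genes.

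Of the 4 genes of proteins that bind eIF4E, 3 had a region at an end, and the widest had a median of 601 bp, against 810 bp for all genes with an end region. Eif4ebp2, described above, had the widest of the 3, 834 bp. Eif4ebp1, the best studied of these mTOR-controlled inhibitors, had 3 regions at its ends, of 601 bp (chr8:27260140-27260740) and 359 bp at one end and 322 bp at the other. Eif4enif1, which encodes the eIF4E transport protein, had 233 bp on the first of 4 annotated starts, the smallest value among the 62 genes when each is taken by its widest end region, and 6 regions in the gene and 10 kb. Eif4ebp3 (chr18:36664060-36666324) had none at an end; the closest region, 737 bp, lay 3.57 kb away at ends of Sra1 and Apbb3.

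The elongation factor genes had a region at an end in 6 of 7 cases. Eef1a1, whose product delivers aminoacyl-tRNA to the ribosome, had 1483 bp on its start (chr9:78480801-78482283) in a gene of 3.27 kb. The exchange complex genes Eef1b2, Eef1d and Eef1g had 1287, 869 and 782 bp. Eef2, the translocation factor gene, had 659 bp on its start and 702 bp just past its other end, the second also at an end of Dapk3, with 7 regions in the gene and 10 kb. Eefsec, which encodes the selenocysteine elongation factor and is 189 kb long, had 636 bp on its start and 3 internal regions of 215 to 382 bp. Eef1e1, an elongation factor gene by symbol whose product belongs to a tRNA synthetase complex, had 901 bp, and Eif1ad, for an eIF1A-domain protein, had 1243 bp.

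The 8 genes of enzymes that modify elongation factors all had a region at an end, the widest from 752 to 1030 bp. This range lay within the quartiles over all protein-coding genes with an end region, 566 to 1036 bp. An end region was present in 91.2% of the translation factor genes, these 8 included, and in 54.1% of all protein-coding genes. Eef1akmt1, Eef1akmt2, Eef1akmt3, Eef1akmt4 and Eef1aknmt encode methyltransferases of eEF1A, and Eef2kmt one of eEF2. Eef1akmt4-ece2 is a read-through gene that shares its start, and hence both of its end regions, with Eef1akmt4, so the 2 are not independent. Eef2k, whose kinase product blocks eEF2, had 944 bp over the first of its 3 annotated starts. A further region of 694 bp lay inside Eef2k (chr7:120851551-120852244), with its middle 708 bp past the third start.

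**Figure D4:**
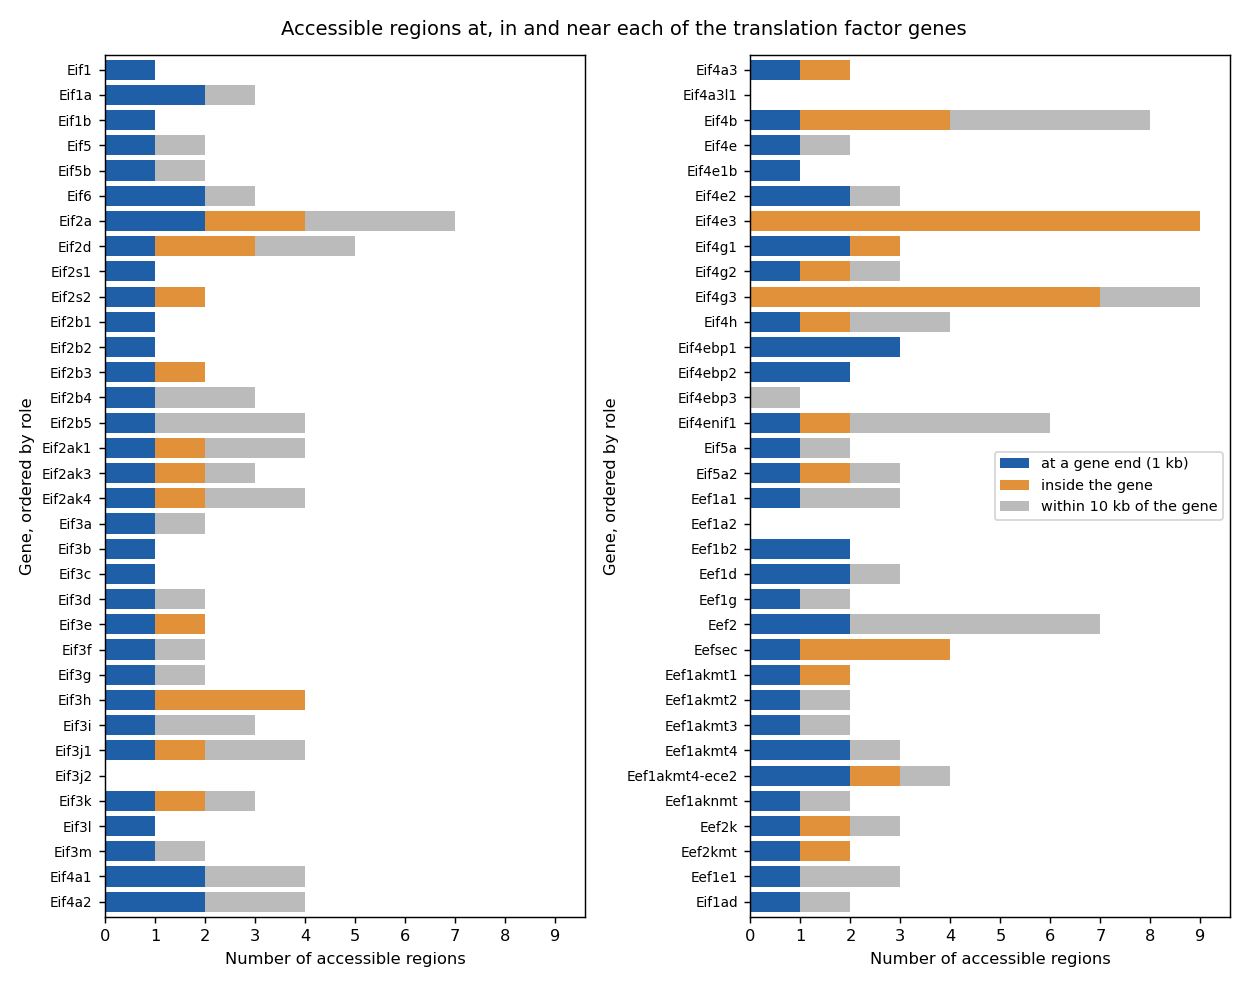
Number of accessible regions for each of the 68 translation factor genes, ordered by role: at a gene end (within 1 kb), inside the gene away from its ends, and elsewhere within 10 kb. Eif4e3 and Eif4g3 reach 9 regions with none at an end, and Eif3j2, Eif4a3l1 and Eef1a2 have 0.

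In 5 of the 8 sets of paralogs, 1 gene had no region at an end while the others had one: these genes were Eef1a2, Eif4e3, Eif4g3, Eif4ebp3 and Eif3j2. No annotated start was matched to Eif4e3, so whether any of the 9 regions inside it covers its start is unknown. Eef1a2, which takes the place of Eef1a1 in adult muscle and neurons, had 0 regions against the 1483 bp region and 3 regions in all of Eef1a1. Eif4e1b, the eIF4E form of mouse oocytes, had no region on the gene; its only region, 555 bp (chr13:54788991-54789545), lay 532 bp from the gene and at an end of Tspan17. Eif4e, the general cap-binding gene, had 1172 bp (chr3:138526161-138527332) over both of its annotated starts, and Eif4e2, for a cap-binding repressor, had 403 bp (chr1:87214284-87214686) near its starts and 175 bp on them. Both genes of eIF5A, the factor that carries the modified residue hypusine and helps ribosomes past difficult stretches, had a region on a start. It was 1000 bp (chr3:28780656-28781655) at Eif5a2 and 855 bp (chr11:69921204-69922058) at Eif5a, where it covered 3 of 6 annotated starts. The helicase gene Eif4a1 had 670 bp (chr11:69672039-69672708) on its start and Eif4a2 had 1434 bp (chr16:23107187-23108620). Eif4a3, which encodes a core protein of the exon junction complex, had 807 bp (chr11:119299639-119300445), and Eif4a3l1, alike by symbol but in none of the 8 sets, had 0 regions. Eif4g1, with 668 bp (chr16:20672247-20672914) on its start, and Eif4g2 were accessible at an end, and Eif4g3 at its internal start.

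Several end regions were shared with a neighbouring gene. Of the 62 genes with an end region, 22 (35.5%) had one that also lay at an end of another protein-coding gene, against 29.5% of all genes with an end region. For 7 of them the region covered an annotated start of each gene, on opposite strands in all 7, with the starts 17 to 802 bp apart. These were Eif2b1 with Gtf2h3 (17 bp), Eif2a with Serp1 (63 bp), Eif1ad with Banf1 (63 bp), Eif3k with Map4k1 (162 bp), Eif2b4 with Snx17 (165 bp), Eif2s1 with Atp6v1d (434 bp) and Eif5b with Txndc9 (802 bp). All 7 regions were wider than 1000 bp, from 1007 to 1661 bp. For regions that cover a start of each gene, the share and width over all protein-coding genes are not given here. Whether such regions are more common or wider at translation factor genes was therefore not tested. Of the 62 genes, 22 (35.5%) had an end region over 1000 bp, against 28.4% of all genes with an end region. A shared region cannot be assigned to one of its genes.

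Regions at both ends were seen in 8 of the 68 genes (11.8%), against 6.19% of all genes. They were Eef1b2, Eef1d, Eef2, Eif1a, Eif4a2, Eif4ebp1, Eif4g1 and Eif6. In Eef2, Eif4g1 and Eif4a2, where the strand is known, the region beyond the 3′ end also lay at an end of a neighbour (Dapk3, Fam131a and Rfc4). In Eef1b2 it was 521 bp wide, 331 bp past the gene, and at an end of no other protein-coding gene.

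Inside the genes, accessible regions were fewer and narrower than at their ends. A region lay inside the gene, clear of its ends, in 25 of the 68 genes (36.8%), against 40.3% of all genes. The 190 distinct regions in the 68 genes and 10 kb on either side had a median width of 807 bp at gene ends and 271 bp inside genes, against 715 and 278 bp over all protein-coding genes. Of the 69 regions elsewhere within 10 kb, 23 lay at an end of another protein-coding gene, with a median of 731 bp, and the other 46 had a median of 307.5 bp. The members lie close together in 2 places: Eif4a1 and Eif5a are 244 kb apart on chromosome 11, and on chromosome 16 Eif2b5, Eef1akmt4 and Eif4g1 follow one another with gaps of 102 and 53.9 kb.

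Translation factor genes often host small nucleolar RNA genes, which guide chemical modification of ribosomal RNA and are spliced out of introns. In the annotation, 9 of the 68 genes (13.2%) hold 16 small nucleolar RNA (snoRNA) genes within their span, against 1.72% of all protein-coding genes with at least 1. Whether these lie in introns and on the same strand was not checked. Eif4a2 holds 5, Eif4a1 holds 3, Eef1b2 holds 2, and Eef2, Eif2ak3, Eif3a, Eif4g1, Eif4g2 and Eif5 hold 1 each. All 9 had a region at an end, as did 91.2% of the 68 genes, with the widest from 668 bp at Eif4g1 to 1843 bp at Eif4g2. The same share over all protein-coding genes that hold a snoRNA gene is not given here. The count of snoRNA genes comes from the annotation alone and is not a measurement of these cells.

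The promoters were searched for 10 motifs, each as fixed letters on both strands, and no motif contains another. The SP/KLF motif GGGCGG was in 38 of the 52 member promoters (73.1%), the NFY motif CCAAT in 18 (34.6%), the ETS core CCGGAAG in 14 (26.9%) and the E-box CACGTG, a site of Myc and related factors, in 13 (25%). The same motifs were in 47.3, 39.1, 12.3 and 7.97% of all 16457 promoters. Among the 9039 promoters of genes with a region at an end they were in 64.5, 39.8, 19.3 and 10.2%. Among promoters with a CpG ratio of at least 0.6, the SP/KLF motif was in 78.3% of the 46 members' and 74.4% of all 8198. There the NFY motif was in 32.6 and 37.7%, the ETS core in 28.3 and 20.1%, and the E-box in 28.3 and 11.5%. The E-box genes were Eef2, Eef2k, Eef1aknmt, Eif1b, Eif3a, Eif3f, Eif3k, Eif4a1, Eif4g1, Eif4h, Eif5a2 and the shared promoter of Eef1akmt4 and Eef1akmt4-ece2, which makes 12 of 51 distinct promoters (23.5%).

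The other motifs were rarer. NRF1 (GCATGCGC) was in 5 member promoters (9.62%), namely Eef1a1, Eef2, Eif2s1, Eif3k and Eif4h. It was in 3.66% of all promoters and 5.71% of those of genes with a region at an end. With a CpG ratio of at least 0.6 it was in 10.9% of the members' promoters and 6.5% of all. The TATA box TATAAA was in 4 (7.69%), against 13.5% of all promoters but 7.01% of those of genes with a region at an end. Among promoters with a CpG ratio of at least 0.6 it was in 8.7% of the members' and 5.82% of all. The YY1 motif AAGATGGCG was in 1, Eef1e1 (1.92%, against 1.92% of all promoters), and the CRE TGACGTCA in 1, Eef2 (1.92%, against 2.4%). Among promoters of genes with a region at an end the 2 motifs were in 3.21 and 3.5%. With a CpG ratio of at least 0.6 each was in 2.17% of the members' promoters, against 3.55 and 3.93% of all. The BANP/ZBTB33 motif TCTCGCGAG (0.997% of all promoters) and the ATF4 motif TGATGCAA (0.784%) were in 0 of the 52. A match is a run of letters, not a measured binding site.

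**Figure D5:**
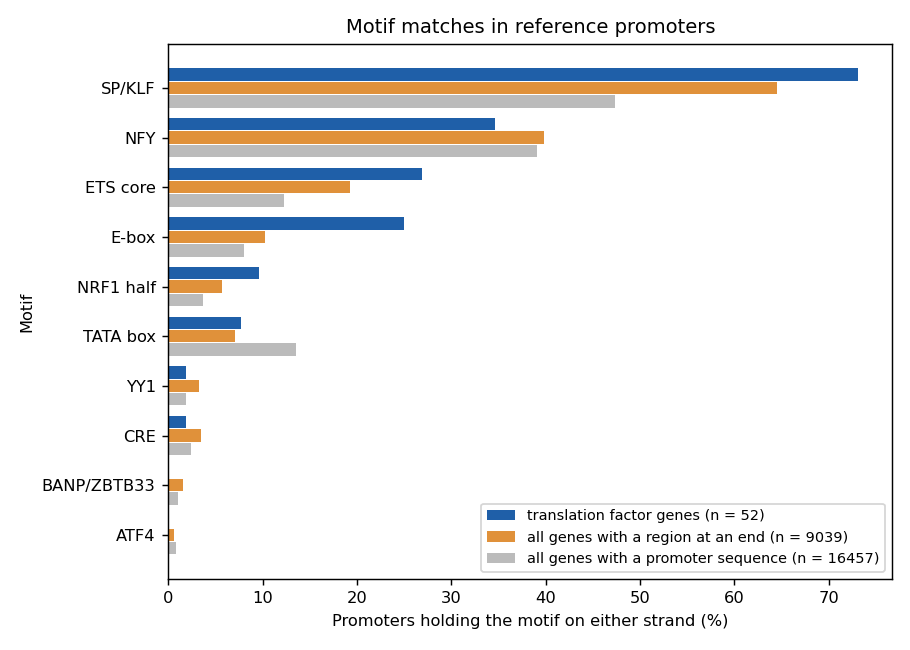
Percent of reference promoters that hold each of the 10 motifs on either strand, for the 52 translation factor genes, all 9039 genes with a region at an end, and all 16457 genes with a promoter sequence. The bars for the E-box stand at 25, 10.2 and 7.97%, and those for the SP/KLF motif at 73.1, 64.5 and 47.3%. The groups are not matched for promoter CpG content.

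Many mRNAs of the translation machinery begin with a terminal oligopyrimidine tract, a C followed by several C or T letters, through which mTOR controls their translation. All 11 members listed as such genes (Eef1a1, Eef1b2, Eef1d, Eef1g, Eef2, Eif3a, Eif3e, Eif3f, Eif3g, Eif3h and Eif4b) had a region at an end. The widest ran from 405 to 1483 bp, with a median of 869 bp. An end region was present in 91.2% of the translation factor genes, these 11 included, and in 54.1% of all protein-coding genes. There the widest had medians of 875 and 810 bp. At the annotated start, 1 of the 7 listed genes with a sequence began with C and ran for at least 5 C or T letters. This was Eif3f, with 11 letters, shown in capitals at the end of its promoter above; Eef1a1 began with T and ran for 5. The criterion was met by 1 of the 52 translation factor genes (1.92%), against 2.17% of all genes with a start. Annotated starts are not starts measured in these cells.

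Other genes of the pathway were also mostly accessible at an end. A list of 30 held genes for termination factors, mTOR signalling to translation, the eIF2 stress response and mRNA-binding regulators, and others such as Denr, Dhps, Hbs1l and Dhx29. Of the 30 genes, 28 (93.3%) had a region at an end, against 54.1% of all genes, and the widest had a median of 966 bp. They included Mtor, with 955 bp and 7 regions in the gene and 10 kb, and Atf4, which encodes the transcription factor made when eIF2 is phosphorylated, with 1117 bp. Ddit3, a target gene of ATF4, had 1483 bp, and Pdcd4, which encodes an inhibitor of eIF4A, had 301 bp at an end but 6 regions inside. The exceptions were Larp1, whose product represses mRNAs with terminal pyrimidine tracts, with 5 regions inside the gene, and Mcts2, with 2 within 10 kb.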

How the data were processed

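ATAC-seq was performed on 4 libraries (2 Ddx55 KO, 2 WT), size-selected and read from both ends per the labels. The deposited file, merged by its name, lists regions as chromosome, start and end in 3 columns, with none for a library. Per the submitters' processing notes, the tools were fastp 0.12.4, Bowtie2, SAMtools 1.15.1, MACS3 3.0.0b1, with build mm10. Settings, the peak threshold, the handling of duplicates and of the transposase offset, and the way peaks were joined are not given in the labels used, and each could change the number and width of regions.

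BED starts were converted to 1-based positions. Regions were assigned, by at least 1 bp of overlap, to the 1 kb on either side of each gene end, to the rest of the gene, or to 10 kb on either side. Starts, strands and promoter sequences (250 bases before to 50 after a start) came from RefSeq. The members and all lists (motifs, markers, paralogs, pathway genes) were chosen with earlier results of these data known. Some cell type markers are not reported here. Named genes followed a rule: each member once, with positions for those without an end region, the 3 widest, the 3 with the most regions, the paralog sets and the kinases. Larp1 and Mcts2 followed from the same rule; Mtor, Atf4, Ddit3 and Pdcd4 were chosen after their values were seen. Protein identity between paralogs was planned and not analysed here. The assignment of regions to genes was tested on simulated data. Analyses used Python 3.11.15, pandas 2.3.3, NumPy 2.4.6 and SciPy 1.17.1.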

Additional observations from a re-analysis of the deposited data

How the results depend on the processing

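The share of translation factor genes with a region at an end ran from 86.8% (regions of at least 300 bp only, which removed Eif1b, Eif3i and Eif4enif1) to 94.2% (the annotated start end only, 52 genes). With 500 bp windows it was 89.7%, losing Eif4e1b, and with 2 kb windows 92.6%, gaining Eif4g3; the same share over all genes was 50.2 and 59.5%. It was 92.2% over the 51 genes that overlap no other protein-coding gene, and 90.8% without the 3 kinases and 91% without Eef1akmt4-ece2, both alternatives chosen after seeing the data. The share over all 20665 protein-coding genes moved from 54.1% to 59.8% for the 17424 genes counted as long as the members. The members ran from 2.15 to 215 kb, so that class keeps most genes and is not matched in length. The share moved to 80.8% for genes with a promoter CpG ratio of at least 0.6. The median number of regions was 1 in the gene body alone, for members and for all genes, against 2 for both with 10 kb flanks; with 5 kb flanks it was 2 for members and 1 for all genes. Of 28 alternatives, the other 25 left a share inside its counting interval, or a count or median within 1.5 times its value. No paired analysis was possible because the list holds no value per library, and leaving out a replicate could not be done for the same reason.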

Other observations

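The rule left out factor genes on the sex chromosomes, and each of the 3 had 1 region, on a gene end. Eif2s3x, the X-linked gene of the gamma subunit of eIF2, had a region of 1124 bp (chrX:94212612-94213735), Eif1ax, an X-linked gene for eIF1A, had 902 bp (chrX:159371761-159372662), and Eif2s3y, the Y-linked paralog of Eif2s3x, had 748 bp (chrY:1009864-1010611). None of the 3 had a region inside the gene or elsewhere within 10 kb.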
